A study of Sus scrofa with 8 samples.

Results

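Macrophage markers were examined in the livers of young and old sows of an indigenous Chinese pig breed (spelled Yana in the series' description and Yanan in the study's methods). The rule named 10 marker genes (CD163, MARCO, CD68, CSF1R, CD14, MSR1, MRC1, VSIG4, TIMD4 and AIF1) and took those whose pig symbol is paired with an identifier of the mRNA table. Of these, 7 had an identifier among the 21607 listed, and all 7 were above 0 in each library. CD163, VSIG4 and AIF1 were not matched and were not analysed here. The young livers (YL) came from 2 healthy female pigs aged 180 days and the old livers (OL) from 2 healthy female pigs aged 8 years, without blood relationship within 3 generations per the study's methods. Per the study's discussion, the young sows had not given birth. The old sows had given birth over many years and were culled as their production declined. Age and reproductive history thus cannot be told apart. No agent was given and no gene was altered in either group, the animals were fasted overnight before slaughter, and each liver gave 1 rRNA-depleted RNA library and 1 small RNA library.

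Kupffer cells are the resident macrophages of the liver. They sit in the sinusoids, where they remove bacteria, dead cells, modified lipoproteins and worn red blood cells from portal blood, and they depend on signals through the receptor CSF1R. Monocytes from the blood can join or replace them, and the surface receptors of resident and recruited macrophages differ in part. Several of these receptors are not unique to macrophages, as MRC1 is also found on sinusoidal endothelial cells and CD14 is also made by hepatocytes. In whole liver, fewer cells of a type and less RNA per cell cannot be told apart.

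The values are CPM (reads scaled to the size of the library) without a correction for gene length, so they are compared between libraries for each gene and not between genes. Reads on listed mRNAs numbered 37555696 and 37125093 in the young libraries and 22482241 and 24866406 in the old libraries. Listed mRNAs above 0 numbered 15230 and 14291 in the young libraries and 17262 and 16978 in the old libraries. More mRNAs were thus detected in the old libraries, which had fewer reads. SPIC and S100A8 below, at 0 reads in both young livers, are to be read beside this wider difference. The listed mRNAs summed to 408898.5 and 428910.4 CPM in YL and to 365329.6 and 346173.4 CPM in OL. The 7 markers rested on 116 to 6544 reads per library. Old replicate 1 stood apart from the other libraries in interferon-stimulated genes, as the 29 of 40 listed genes found in the table summed to 2384 CPM there, against 101 CPM in old replicate 2 and 121 and 143 CPM in YL. Markers of hepatocytes (15 of 17 found) summed to 51423 and 58669 CPM in YL and to 36316 and 44385 CPM in OL, so the labelled tissue carried its defining genes in each library. ALB alone gave 29468 and 35205 CPM of this sum in YL and 16534 and 23978 CPM in OL. The part of these differences in the values below was not tested.

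Among the markers, the old livers had higher CD14, CD68 and MARCO and lower MRC1 and MSR1 than both young livers, while CSF1R and TIMD4 overlapped between the age groups. None of the 7 passed the thresholds of an adjusted p-value under 0.05 and an absolute log2 fold change above 1 in limma (0 called), where 0.00% of 16898 mRNAs tested were called in either direction and the smallest adjusted p-value over all mRNAs was 0.213. An unadjusted p-value under 0.05 was reached in limma by CD14 and CD68 (higher in OL, as 6.78% of all mRNAs tested) and by MRC1 and MSR1 (lower in OL, as 8.93%). The exact test of edgeR on recovered reads called 0 of the 7, against 2.70% of mRNAs called higher and 0.456% called lower, and CD14 and MARCO reached an unadjusted p-value under 0.05 with a higher level in OL (10.3% of mRNAs higher and 2.70% lower). The quasi-likelihood test of edgeR called 0 (0.00% of mRNAs), and CD14, CD68 and MARCO reached an unadjusted p-value under 0.05 (11.6% of mRNAs higher and 3.08% lower). DESeq2 called 1 marker, which was CD14, against 4.07% of mRNAs called higher and 1.20% called lower. The log2 fold change, the difference of the group means of log2(CPM + 1), was positive for 5 of the 7 markers, against 47.1% of all mRNAs tested. Counts of positive and negative log2 fold changes below use the same scale, on which a gene can differ in sign from its mean CPM. The groups did not overlap for 5 of the 7 markers, against 49.3% of all mRNAs tested, of which 24.4% had both old livers above and 25.0% both old livers below the young livers. A non-overlap of 2 against 2 libraries was thus common in this table. The 7 values together summed to 89.9 and 99.3 CPM in YL and 152 and 161 CPM in OL. This sum follows the genes with the most CPM. CD14 alone gave 27.9 and 27.8 CPM of it in YL and 49.7 and 91.1 CPM in OL, and TIMD4 gave 52.3 CPM in old replicate 1. The sum is therefore not a measure of the 7 markers as a set.

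**Figure D1:**
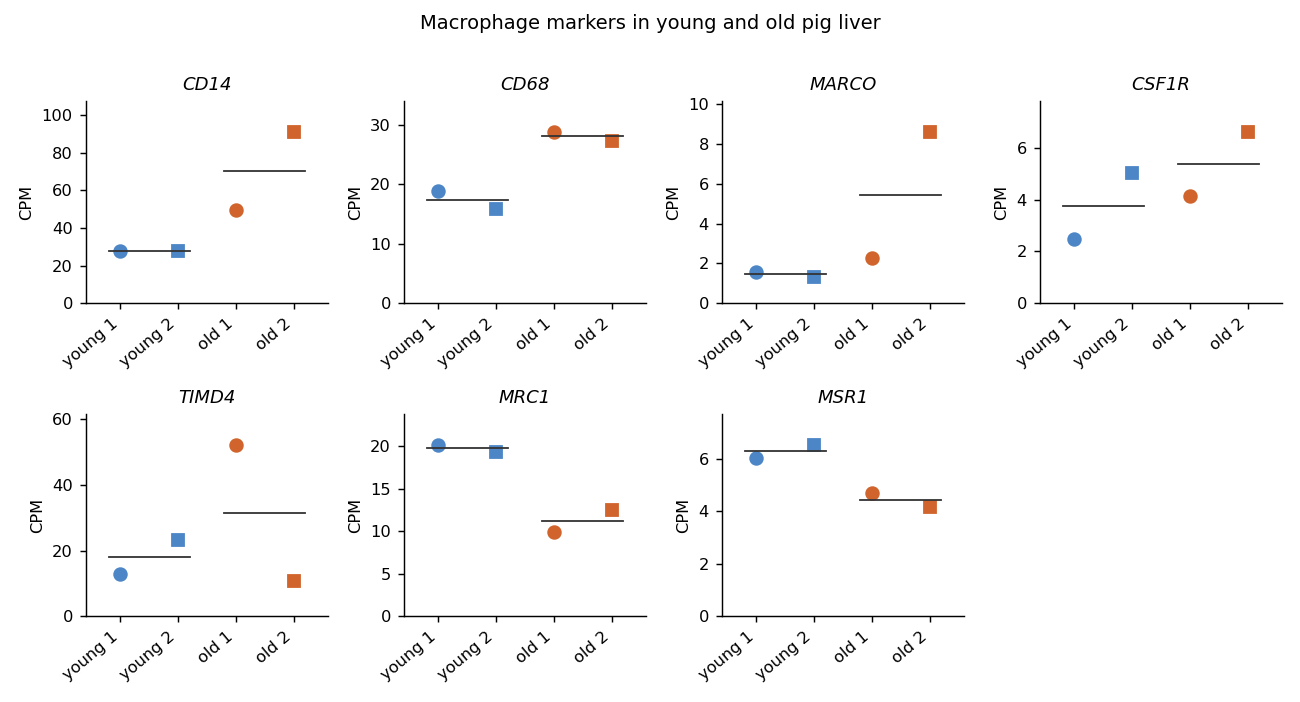
CPM of the 7 macrophage markers (vertical axis, from 0) in each of the 4 libraries (horizontal axis), with a line at the mean of each age group. Both old livers lie above both young livers for CD14, CD68 and MARCO and below them for MRC1 and MSR1, and the old livers are far apart for TIMD4 (52.3 and 10.7 CPM).

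CD14 is the coreceptor that hands bacterial lipopolysaccharide (LPS) to its signalling complex. It was at 27.9 and 27.8 CPM in YL (2558 and 2406 reads) and at 49.7 and 91.1 CPM in OL (3056 and 6544 reads). The young livers were nearly equal, both old livers were above them, and old replicate 2 was the highest. The means were 27.8 ± 0.0382 CPM (SD, n = 2) and 70.4 ± 29.3 CPM (SD, n = 2), a ratio of 2.53. On log2(CPM + 1) the difference was 1.24 (SE, the standard error, 0.35, limma adjusted p = 0.282). It was 0.81 without old replicate 2 and 1.68 without old replicate 1. DESeq2 on recovered reads estimated a log2 fold change of 1.52 (adjusted p = 0.0306), and edgeR's exact test 1.54 (adjusted p = 0.148).

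CD68 is a glycoprotein of late endosomes and lysosomes that is abundant in phagocytes. Its values were 18.9 and 15.9 CPM in YL (1740 and 1376 reads) and 28.9 and 27.4 CPM in OL (1777 and 1967 reads). The old livers lay close together and above both young livers, with means of 17.4 ± 2.16 and 28.1 ± 1.06 CPM (SD, n = 2 each) and a ratio of 1.61. The difference on log2(CPM + 1) was 0.67 (SE 0.14, limma adjusted p = 0.245), and it stayed between 0.55 and 0.79 when any 1 of the 4 libraries was left out.

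MARCO is a scavenger receptor with a collagen-like stalk that binds bacteria and particles. It had 1.58 and 1.34 CPM in YL (145 and 116 reads) and 2.28 and 8.62 CPM in OL (140 and 619 reads). Both old livers were above the young livers, but old replicate 1 only slightly so, and old replicate 2 carried most of the difference. The difference on log2(CPM + 1) was 1.19 (SE 0.62, limma adjusted p = 0.468), and was 0.41 without old replicate 2 and 1.97 without old replicate 1. edgeR's exact test on recovered reads, with no pseudocount of 1 CPM, estimated 2.10 (adjusted p = 0.206). MARCO thus differed by less between old replicate 1 and the young livers than between the old livers themselves.

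MRC1, the mannose receptor, takes up glycoproteins with exposed mannose. It was at 20.2 and 19.4 CPM in YL (1852 and 1676 reads) and at 9.88 and 12.5 CPM in OL (608 and 898 reads). Both old livers were below both young livers, and the means were 19.8 ± 0.566 and 11.2 ± 1.85 CPM (SD, n = 2 each), so that the old mean was 0.566 times the young mean. The difference on log2(CPM + 1) was -0.78 (SE 0.16, limma adjusted p = 0.241), and it lay between -0.93 and -0.62 with 1 library left out. It was -0.58 after TMM scaling, and edgeR's exact test on recovered reads estimated -0.62 (adjusted p = 0.782). Markers of endothelial cells, of which 11 of 19 were found, summed to 70.8 and 59.6 CPM in YL and to 99.6 and 77.8 CPM in OL. Of these, 7 had a positive and 4 a negative log2 fold change (47.1% of all mRNAs tested were positive). The 4 were KDR, TEK, OIT3 and ERG, and LYVE1 alone had 36.5 CPM in old replicate 1 against at most 8.90 CPM in the other libraries. The part of endothelial cells in the value of MRC1 was not tested.

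MSR1, the class A scavenger receptor for modified low-density lipoprotein, showed a small difference. It was at 6.04 and 6.53 CPM in YL (555 and 565 reads) and at 4.68 and 4.16 CPM in OL (288 and 299 reads). The groups did not overlap and were each narrow, with means of 6.29 ± 0.343 and 4.42 ± 0.366 CPM (SD, n = 2 each). The difference on log2(CPM + 1) was -0.43 (SE 0.13, limma adjusted p = 0.288), and it was -0.25 after TMM scaling.

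CSF1R, the receptor tyrosine kinase for the growth factors CSF1 and IL34, overlapped between the groups. Its values were 2.48 and 5.05 CPM in YL (228 and 437 reads) and 4.14 and 6.63 CPM in OL (255 and 476 reads). Old replicate 1 lay between the young livers, and the spread within each group was larger than the difference of the means (3.77 ± 1.82 and 5.39 ± 1.76 CPM, SD, n = 2 each). The difference on log2(CPM + 1) was 0.45 (SE 0.40, limma adjusted p = 0.663) and was 0.05 without young replicate 1.

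TIMD4, a receptor for phosphatidylserine on dying cells that marks resident Kupffer cells, differed widely between the old livers. It was at 12.8 and 23.3 CPM in YL (1176 and 2020 reads) and at 52.3 and 10.7 CPM in OL (3216 and 770 reads). Old replicate 1 was the highest of the 4 livers and old replicate 2 the lowest, so that the direction depended on a single library. The difference on log2(CPM + 1) was 0.45 (SE 0.92, limma adjusted p = 0.866), 1.54 without old replicate 2 and -0.65 without old replicate 1. Old replicate 1 is also the library with high interferon-stimulated genes, and the part of that in the value of TIMD4 was not tested.

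**Figure D2:**
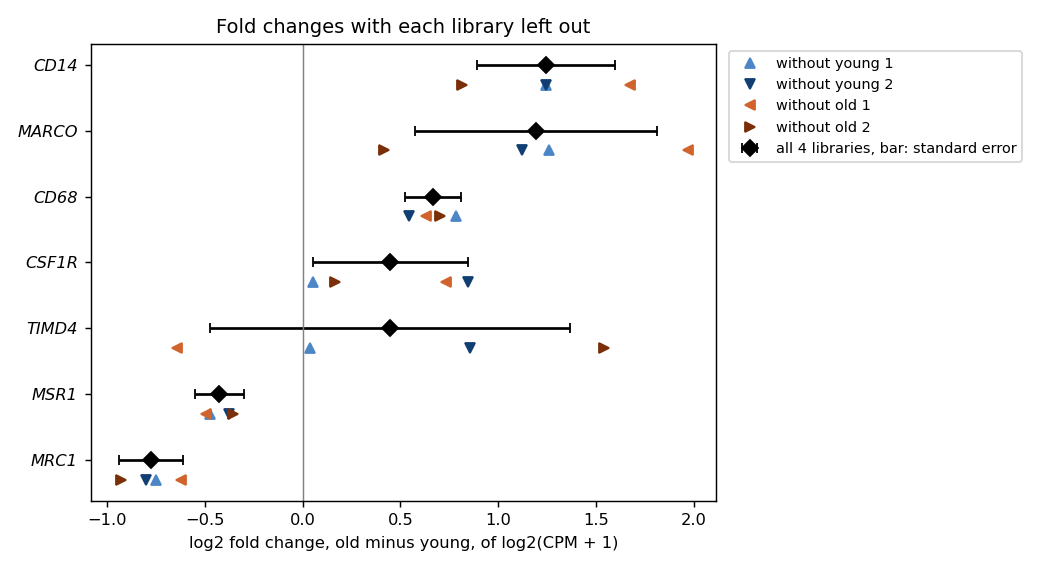
Difference between old and young livers in log2(CPM + 1) for each macrophage marker (horizontal axis), as fitted with limma on all 4 libraries (diamonds, bars are 1 standard error) and with each library left out (triangles). CD68, MRC1 and MSR1 move little when a library is left out, MARCO and CD14 depend on old replicate 2 for their size, and TIMD4 changes direction without old replicate 1 (-0.65).

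The opposite directions of CD14 and MRC1 can be read within each library, where the scaling of the library drops out almost entirely. The difference of CD14 minus MRC1 on log2(CPM + 1) was 0.45 and 0.50 in YL and 2.22 and 2.77 in OL. For CD68 minus MRC1 it was -0.09 and -0.27 in YL and 1.46 and 1.07 in OL. In both old livers, CD14 and CD68 were thus higher relative to MRC1 than in either young liver. MARCO minus MSR1 was -1.45 and -1.69 in YL, -0.79 in old replicate 1 and 0.90 in old replicate 2. These pairs were chosen after the values were seen and were not tested.

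The wider macrophage pathway was read from 6 lists with 101 genes, of which 62 had an identifier and 59 were tested. In limma 0 of the 59 were called, and 6 higher and 2 lower genes had an unadjusted p-value under 0.05 (6.78% and 8.93% of all mRNAs). The exact test of edgeR called 4 higher and 0 lower (2.70% and 0.456%), the quasi-likelihood test called 0 (0.00%), and DESeq2 called 4 higher and 1 lower (4.07% and 1.20%). SPI1, SPIC, TICAM1 and CTSZ were the 4 higher genes of both tests, and IL18 was the lower gene. The groups did not overlap for 28 of the 59 genes, a share of 47.5% against 49.3% over all mRNAs tested, which is near the background. The median log2 fold change over the 59 genes was 0.18, against -0.02 over all mRNAs.

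The CSF1 axis and the transcription factors of macrophages come first. Of 14 genes, 5 were found, and all 5 had a positive log2 fold change (47.1% of all mRNAs tested), 4 of them with both old livers above (24.4%). The fifth, NR1H3, which encodes the sterol receptor LXR alpha, had nearly equal means of 79.1 and 79.2 CPM. CSF1 and IL34, the ligands of CSF1R, were not matched. SPI1 encodes PU.1, the master transcription factor of macrophages, which also controls CSF1R and MSR1. It was at 1.85 and 1.94 CPM in YL and at 26.5 and 5.78 CPM in OL. Both old livers were above the young livers and old replicate 1 was far above, so that the log2 fold change of 2.24 (SE 0.80, limma adjusted p = 0.341) was 1.23 without old replicate 1. edgeR's exact test estimated 3.29 (adjusted p = 0.0231).

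CEBPA, a transcription factor of the myeloid lineage and of hepatocytes, was at 1.45 and 0 CPM in YL and at 3.43 and 2.69 CPM in OL. The young livers themselves differed, with 133 and 0 reads. Its log2 fold change was 1.37 (SE 0.53, limma adjusted p = 0.364), and edgeR's exact test gave an adjusted p of 0.840. SPIC, a PU.1 relative known for its role in iron-recycling macrophages, was outside the rule for named genes because of its low level and is given because the exact test called it. It had 0 reads in both young livers and 27 and 37 reads in OL (0.439 and 0.515 CPM), which is at least 14.2-fold higher than 3 reads per young library allow. SLC40A1 encodes ferroportin, the iron exporter of macrophages and hepatocytes, and went the other way. It was at 24.1 and 32.2 CPM in YL and at 4.39 and 14.3 CPM in OL. Both old livers were below the young livers, and the log2 fold change of -1.67 (SE 0.62, limma adjusted p = 0.354) was -0.91 without old replicate 1.

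SLC40A1 belongs to the list of other scavenger and clearance receptors, of which 12 of 23 genes were found. Of these, 8 had a positive and 4 a negative log2 fold change (47.1% of all mRNAs tested were positive). The groups did not overlap for 3 higher and 2 lower genes (24.4% and 25.0% of all mRNAs tested). The 3 higher genes, SCARA3, GAS6 and CD209, had at most 44, 61 and 5 reads in any library. The other lower gene was PROS1, encoding protein S, a ligand that bridges dying cells to the MERTK family of receptors and that hepatocytes secrete. It was at 78.5 and 67.7 CPM in YL and at 37.0 and 48.1 CPM in OL. The difference was -0.78 on log2(CPM + 1) (limma adjusted p = 0.264), of the size found for MRC1.

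The LPS receptor complex holds the partners of CD14. Of 14 genes of the complex and its signalling, 10 were tested. Of these, 7 had a positive and 3 a negative log2 fold change (47.1% of all mRNAs tested were positive). LBP, the plasma protein that carries LPS to CD14, was at 222 and 228 CPM in YL and at 216 and 134 CPM in OL. LY96 encodes MD-2, the LPS-binding partner of TLR4, and was at 2.09 and 5.77 CPM in YL and at 1.64 and 1.60 CPM in OL. Both genes were lower in both old livers, LBP mainly in old replicate 2, whereas CD14 was higher in both. For LBP the log2 fold change was -0.40 (limma adjusted p = 0.590), -0.06 without old replicate 2 and -0.16 in edgeR's exact test (adjusted p = 0.992). That of LY96 was -0.80 (limma adjusted p = 0.501) and -0.24 without young replicate 2.

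TLR4, the signalling receptor, was at 2.53 and 0.659 CPM in YL and at 1.87 and 1.53 CPM in OL, where the groups overlapped. That is the identifier paired with the symbol here, ENSSSCG00000005503. A second identifier, ENSSSCG00000024231, which the study names TLR4, had 57 and 110 reads in YL and 0 in both old livers, at least 20.9-fold lower than the young mean by the limit of 3 reads per old library. It was called lower by edgeR's exact test (adjusted p = 0.00407) and by DESeq2 (adjusted p = 0.00190), and not by limma (adjusted p = 0.251) or the quasi-likelihood test (adjusted p = 0.276). The counts of reads on TLR4 are therefore uncertain. TICAM1, the adaptor TRIF that acts downstream of TLR4 and TLR3, was at 1.23 and 1.17 CPM in YL and at 3.22 and 6.64 CPM in OL. Its log2 fold change was 1.37 (SE 0.35, limma adjusted p = 0.266), and edgeR's exact test estimated 2.24 (adjusted p = 0.0482).

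Of 9 genes of complement C1q, C3 and their receptors, 5 were tested. Of these, 3 had a positive and 2 a negative log2 fold change (47.1% of all mRNAs tested were positive). C1QA, a chain of C1q made mainly by macrophages, was at 181 and 204 CPM in YL and at 255 and 241 CPM in OL. ITGB2, the common chain of the leukocyte integrins, was at 0.893 and 1.91 CPM in YL and at 4.34 and 3.54 CPM in OL. Both were higher in both old livers, with log2 fold changes of 0.37 for C1QA (limma adjusted p = 0.338) and 1.07 for ITGB2 (limma adjusted p = 0.269). ITGAM, an integrin chain of the same list, was lower in both old livers. It was at 0.969 and 0.936 CPM in YL and at 0.682 and 0.571 CPM in OL, with a log2 fold change of -0.26 (limma adjusted p = 0.403). C3, which is cleaved to the fragments that VSIG4 binds, overlapped, with 399 and 414 CPM in YL and 231 and 592 CPM in OL, so that its mean CPM was slightly higher in OL (412 against 406) while its log2 fold change was -0.13.

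Among genes of the phagosome and lysosome, 20 of 28 were found. Of these, 13 had a positive and 7 a negative log2 fold change (47.1% of all mRNAs tested were positive). The groups did not overlap for 6 higher and 3 lower genes (24.4% and 25.0% of all mRNAs tested). CTSZ, a lysosomal cysteine protease, was at 10.3 and 11.6 CPM in YL and at 31.6 and 33.4 CPM in OL. Its spread within each group was small, and its log2 fold change was 1.49 (SE 0.13, limma adjusted p = 0.213) and 1.77 in the exact test of edgeR (adjusted p = 0.0325). NCF1, a subunit of the phagocyte oxidase, was at 0.457 and 0.763 CPM in YL and at 1.89 and 2.42 CPM in OL. LIPA, the lysosomal acid lipase, was lower, with 18.7 and 24.7 CPM in YL and 9.04 and 16.9 CPM in OL. CTSS, a protease of antigen presentation, was at 52.8 and 59.1 CPM in YL and at 51.5 and 38.7 CPM in OL. The genes of this list thus lay in both directions.

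Of 13 macrophage cytokines, 9 were found, 7 were tested and IL6 was at 0 in all 4 libraries. IL18, an interleukin of macrophages and epithelia, was at 4.33 and 5.78 CPM in YL and at 1.24 and 1.43 CPM in OL. The groups were well apart, and its log2 fold change of -1.37 (SE 0.18, limma adjusted p = 0.213) lay between -1.54 and -1.19 with 1 library left out. DESeq2 called it lower (-1.75, adjusted p = 0.0213). The other 6 genes tested had a positive log2 fold change (47.1% of all mRNAs tested), of which 2 did not overlap (24.4% had both old livers above). These 2 were IL1A and CXCL8, with at most 7 and 2 reads in any library.

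**Figure D3:**
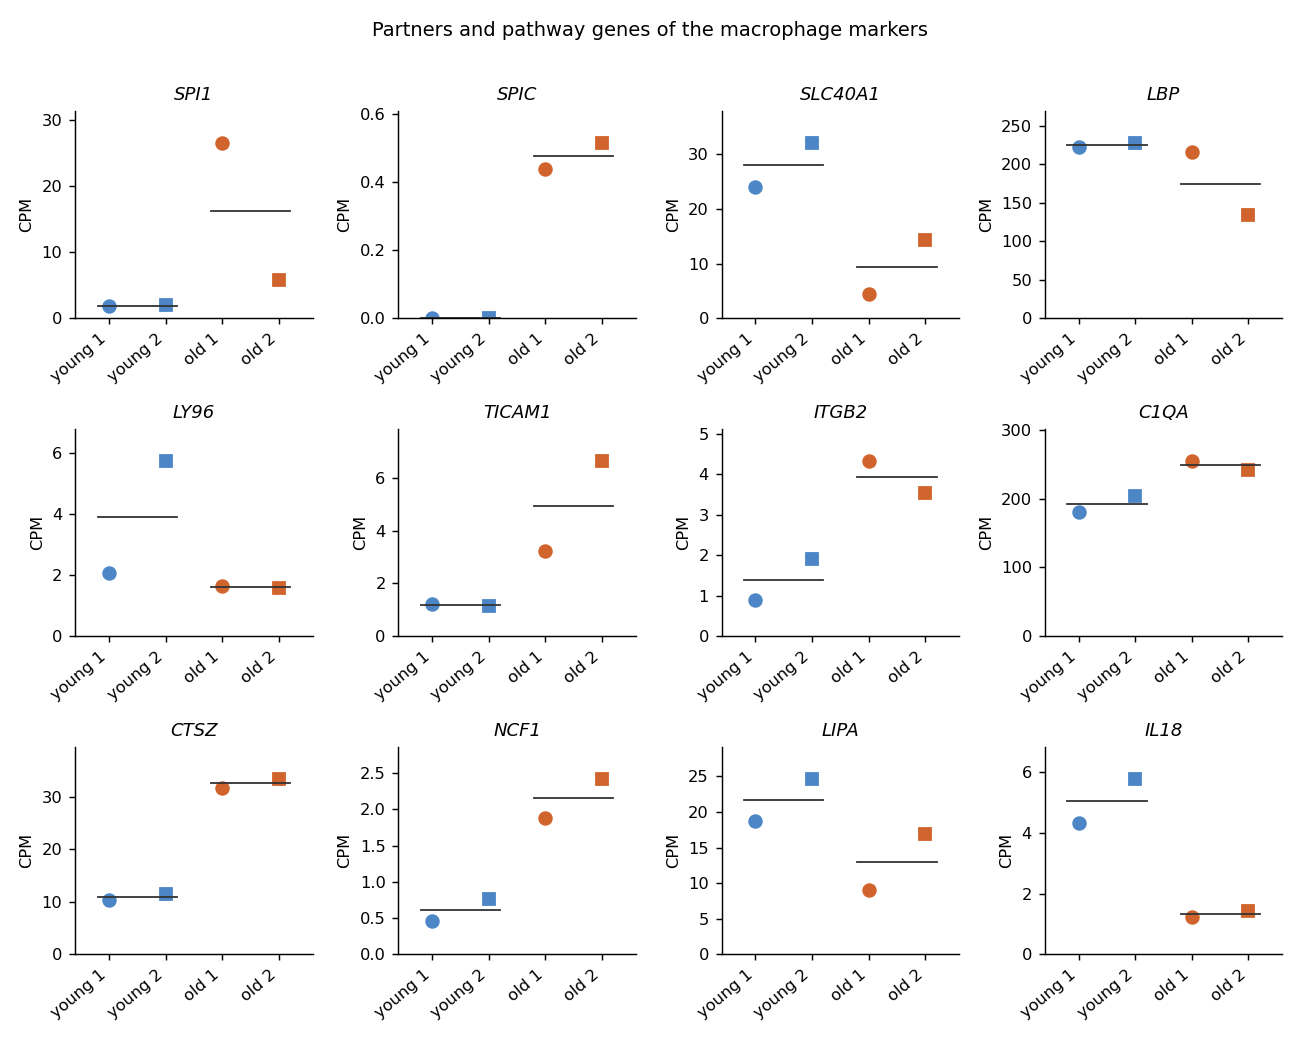
CPM (vertical axis, from 0) of 12 genes that partner with the macrophage markers or belong to their pathways in each of the 4 libraries (horizontal axis), with a line at the mean of each age group. SPI1, SPIC, TICAM1, ITGB2, C1QA, CTSZ and NCF1 are higher and SLC40A1, LBP, LY96, LIPA and IL18 lower in both old livers, and SPI1 is far higher in old replicate 1 (26.5 CPM) than in the other libraries.

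The small RNA libraries gave a separate readout of myeloid cells. Of 9 names of the myeloid miRNA families in the table, 7 had a mean signal of at least 100. In limma 0 of the 9 were called, as were 0.00% of the 867 miRNAs tested in either direction, and 1 of the 9 (miR-155-3p, at a low level) had an unadjusted p-value under 0.05 against 11.9% of all miRNAs. miR-223-3p, which is most abundant in neutrophils and monocytes, had a normalized signal of 9824 and 12265 in YL and of 37596 and 16113 in OL. Both old livers were above both young livers, as in 28.3% of all miRNAs tested (16.1% had both old livers below and 44.4% showed no overlap in either direction), and old replicate 1 was the highest. Its log2 fold change was 1.16 (SE 0.66, limma adjusted p = 0.552) and 0.55 without old replicate 1.

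miR-142 is expressed in all blood lineages. Its -3p arm had a signal of 5201 and 3380 in YL and of 5898 and 3391 in OL, and its -5p arm 3662 and 2096 in YL and 4715 and 1835 in OL. Both arms overlapped between the groups, with log2 fold changes of 0.09 each, and old replicate 2 lay close to or below young replicate 2. miR-155-5p, which is induced in activated macrophages, had 8084 and 2708 in YL and 4409 and 2960 in OL. miR-146a-5p and miR-146b, which restrain Toll-like receptor signalling, had means of 1654 and 167 in YL and of 1573 and 204 in OL, and miR-21-5p had 184374 and 174136 in YL and 301058 and 64111 in OL. These 4 also overlapped. Of the 7 more abundant names, miR-223-3p alone had no overlap.

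**Figure D4:**
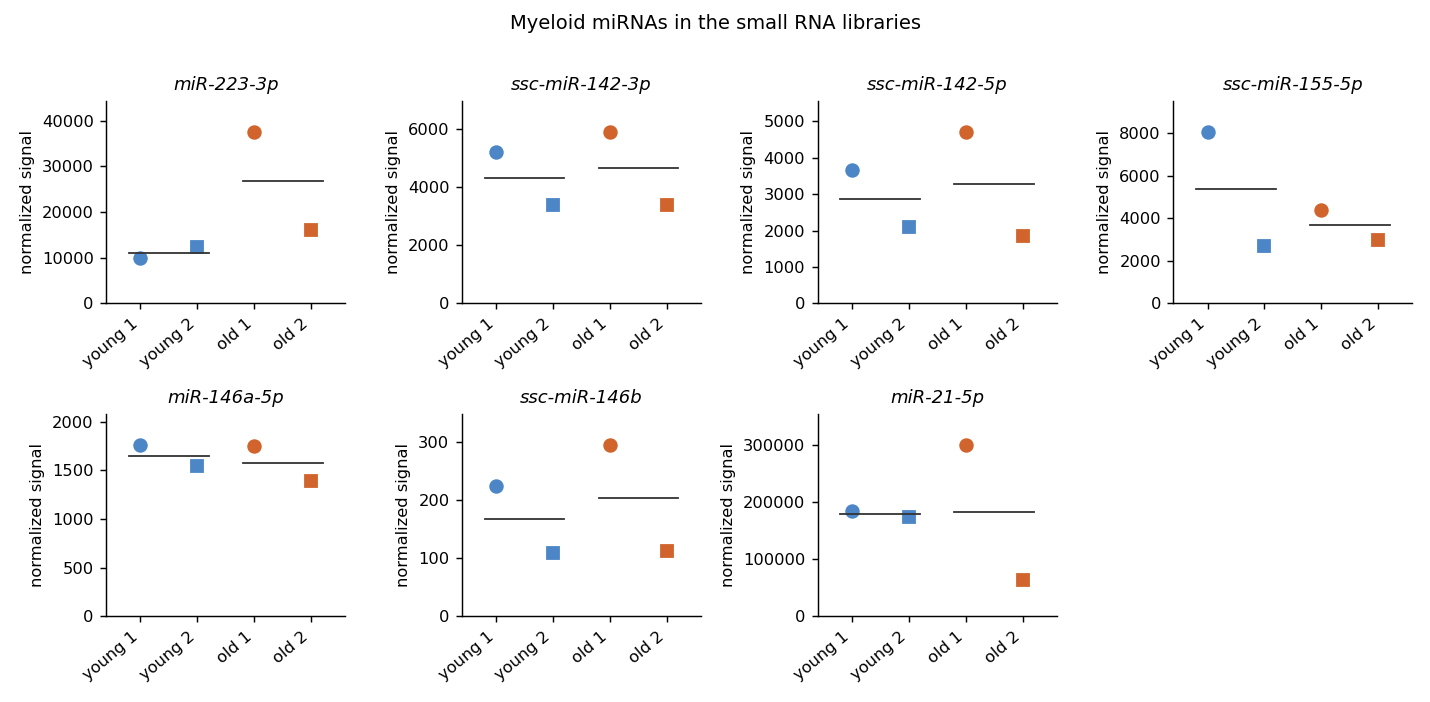
Normalized signal (vertical axis, from 0) of the 7 more abundant myeloid miRNA names in each of the 4 small RNA libraries (horizontal axis), with a line at the mean of each age group. Only miR-223-3p is higher in both old livers than in both young livers, and its highest signal is in old replicate 1 (37596).

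Markers of other cells that a piece of liver holds, with the interferon-stimulated genes, were read in the same way, over 10 lists with 109 genes tested. In limma 0 of them were called, and 7 higher and 2 lower had an unadjusted p-value under 0.05 (6.78% and 8.93% of all mRNAs). The exact test of edgeR called 7 higher and 0 lower (2.70% and 0.456%), among them S100A8, EGFL7, CLDN4, RSAD2, IRF7 and ZBP1. Its quasi-likelihood test called 0 (0.00%), and DESeq2 called 15 higher and 0 lower (4.07% and 1.20%). Monocyte and neutrophil genes (10 of 16 found) summed to 13.4 and 13.9 CPM in YL and to 16.9 and 13.4 CPM in OL. Of these, 7 had a positive and 3 a negative log2 fold change (47.1% of all mRNAs tested were positive). The groups did not overlap for 6 higher genes and 1 lower gene (24.4% and 25.0% of all mRNAs tested). Of the higher genes, MPO, ELANE and CD177 had at most 2, 19 and 21 reads in any library. S100A8, an abundant protein of neutrophils and monocytes, had 0 reads in both young livers and 218 and 66 reads in OL, which is at least 66.3-fold higher than 3 reads per young library allow. The lower gene was ITGA4, at 0.795 and 1.34 CPM in YL and at 0.390 and 0.557 CPM in OL. CX3CR1 overlapped, with 6.57 and 7.98 CPM in YL and 0.471 and 7.92 CPM in OL. Of the dendritic cell genes, 5 of 8 were found with a sum of at most 1.23 CPM, and BATF3 was at 0 in all libraries.

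T and NK cell genes (10 of 16 found, 1 of them with 2 identifiers) summed to 14.0 and 15.4 CPM in YL and to 24.0 and 17.1 CPM in OL. CD2, a surface protein of T cells, was at 2.68 and 2.77 CPM in YL and at 8.82 and 2.99 CPM in OL, NKG7 at 1.25 and 1.79 and at 3.10 and 2.95 CPM, and GZMA (ENSSSCG00000016903) was lower at 3.31 and 3.33 and at 2.08 and 1.34 CPM. B and plasma cell genes (6 of 11 found) summed to 4.03 and 9.95 CPM in YL and to 17.1 and 7.88 CPM in OL, and POU2AF1, a coactivator of B cells, was at 0.708 and 1.23 and at 3.61 and 3.73 CPM. Both sums were highest in old replicate 1. The part of these cells in the macrophage values was not tested.

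In the endothelial list, EGFL7 (1.49 and 1.23 CPM in YL, 5.17 and 5.21 CPM in OL) and PECAM1 (10.5 and 8.92 CPM, 23.8 and 13.8 CPM) were higher and TEK (9.42 and 8.67 CPM, 3.14 and 8.01 CPM) was lower in both old livers. The hepatocyte genes CPS1, of the urea cycle (323 and 255 CPM, 61.6 and 169 CPM), and CYP2E1, a cytochrome P450 (1503 and 2028 CPM, 850 and 1365 CPM), were lower in both old livers. Of the 15 hepatocyte genes, 5 had a positive and 10 a negative log2 fold change (47.1% of all mRNAs tested were positive). The groups did not overlap for 4 lower and 0 higher genes (25.0% and 24.4%). The median log2 fold change of this list was -0.24, and -0.03 after TMM scaling. Cholangiocyte genes (6 of 8 found) summed to 21.8 and 26.8 CPM in YL and to 76.1 and 69.5 CPM in OL, including CLDN4, a tight junction protein with 12.4 and 15.0 CPM and 65.7 and 50.5 CPM. Stellate cell and fibroblast genes (10 of 14 found) summed to 23.4 and 42.6 CPM and to 17.4 and 60.9 CPM, with NGFR at 0.338 and 0.312 and at 0.520 and 3.19 CPM. Erythroid genes (7 of 10 found) summed to 622 and 429 CPM and to 308 and 407 CPM, with HBB and ALAS2 lower and HBM higher in both old livers. Of the interferon-stimulated genes, RSAD2 (0.664 and 1.54 CPM, 618 and 2.28 CPM) and ZBP1 (1.88 and 1.51 CPM, 79.7 and 5.51 CPM) were higher in both old livers and by far the highest in old replicate 1.

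Each old liver was also set against both young livers on its own, where the log2 fold change of the 7 macrophage markers had a median of 0.41 for old replicate 1 and 0.63 for old replicate 2, and 0.45 for both. Old replicate 1 had 4 of the 7 markers above and 2 below both young livers (35.5% and 35.4% of all mRNAs tested), and old replicate 2 had 4 above and 3 below (34.7% and 35.5%). For interferon-stimulated genes the medians were 3.26 and 0.00, for hepatocytes -0.71 and -0.11, for endothelial cells 0.58 and 0.20 and for monocytes and neutrophils 0.44 and -0.12. The difference in the interferon-stimulated genes was thus carried by old replicate 1, whereas the median of the macrophage markers was above 0 in each old liver, as were those of the endothelial list and of the T and NK cell list (0.34 and 0.16). Without young replicate 1 the median of the macrophage markers for both old livers was 0.050. It is a median over 7 genes of which 2 lay below the young livers in both old livers.

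**Figure D5:**
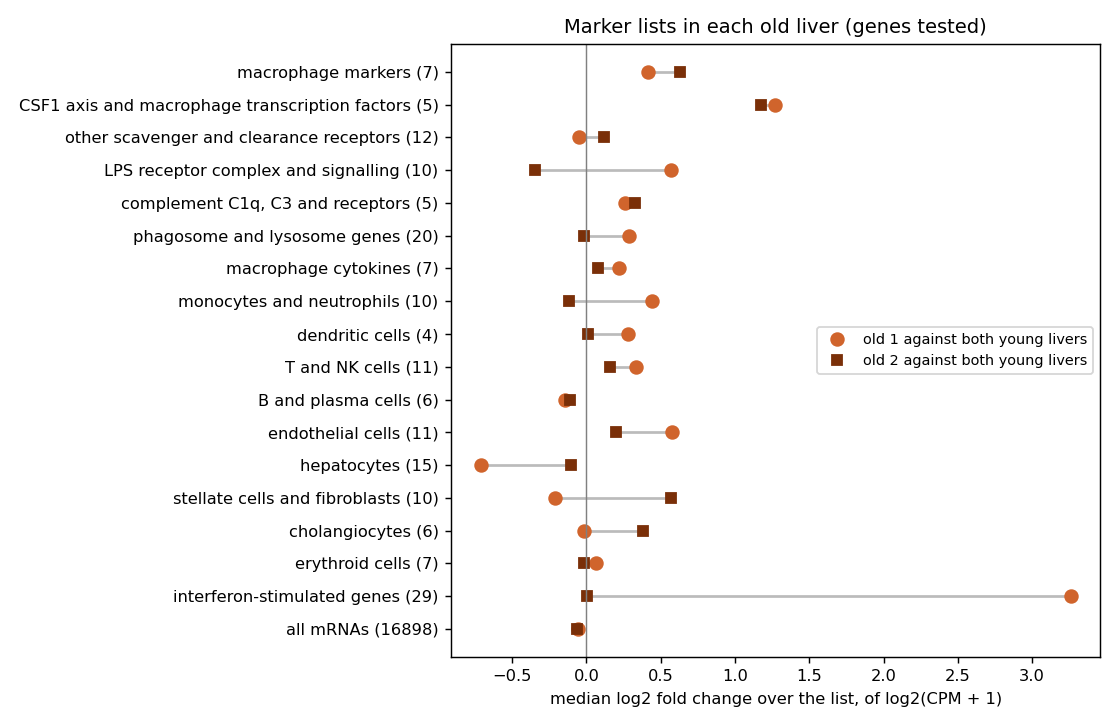
Median log2 fold change in log2(CPM + 1) over the genes of each marker list (horizontal axis, number of genes tested in parentheses) for each old liver against both young livers. The macrophage markers lie at 0.41 and 0.63, and the interferon-stimulated genes at 3.26 in old replicate 1 and 0.00 in old replicate 2.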

How the data were processed

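Liver RNA of 4 sows was measured by rRNA-depleted RNA-seq and small RNA-seq. The authors used TopHat2 2.0.14 for alignment to Sscrofa10.2 and StringTie 1.2.3 for assembly, and name the deposited mRNA and lncRNA values TPM from Salmon 0.6.0. As deposited, 100% of the values above 0 were whole multiples of 1 step per library (within 0.0006), so they were treated as CPM and whole reads were recovered. The miRNA values, a normalized signal made by the authors with mirdeep2, were used as deposited. The circRNA table was not used. Symbols were available for 11654 of 21607 identifiers.

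Old and young livers were compared with limma 3.58.1 (R 4.3.3) on log2(value + 1) over features above 0 in at least 2 of 4 libraries, with Benjamini-Hochberg adjustment over all features. Recovered reads were tested with the exact and quasi-likelihood tests of edgeR 4.0.16 and with DESeq2 1.42.0. The tests were tried on simulated counts. Limits use 3 reads per library and cover counting error only. The p-values measure the spread between 2 animals per group. Replicates differed beyond sampling noise (chi-square per degree of freedom of 165 for young and 485 for old livers). The named genes were the markers, their known partners, and per list the 2 genes with the largest fold change in each direction among those without overlap and with a mean of at least 1. The markers and lists were chosen with earlier results of these data known. Alternatives covered the pseudocount, filter, scaling, variance model, test, a replicate block and leaving out each library.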

Additional observations from a re-analysis of the deposited data

How the results depend on the processing

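With 2 animals per group, the dependence on single animals was read by leaving out a library, which leaves 1 sample in that group and assumes that it varies like the others. Over 15 alternatives, CD14, CD68, CSF1R and MARCO kept a positive and MRC1 and MSR1 a negative log2 fold change. TIMD4 was at -0.65 when old replicate 1 was left out and at 1.54 when old replicate 2 was. The median of the 7 markers (0.45) was 0.61 with the size factors of DESeq2, 0.64 with TMM scaling, 0.89 in the exact test, 0.89 in the quasi-likelihood test and 0.87 in DESeq2, and between 0.050 and 0.85 without 1 library (0.050 without young replicate 1). The cause was not tested. limma called 0 mRNAs, 2 with a mean of at least 1 required, whereas the exact test called 534 and DESeq2 891, of which 1 was a marker (CD14) under DESeq2. Of the genes in the other lists the exact test called 11 and DESeq2 20. Of mRNAs with an unadjusted p-value under 0.05, 43.1% were higher in old livers, and 61.5% after TMM scaling, which moved the median of all mRNAs from -0.02 to 0.04. Among miRNAs, TMM scaling turned miR-142-5p to -0.12 and miR-142-3p to -0.11. Without 1 library, miR-142-5p ranged from -0.59 to 0.77, miR-142-3p from -0.31 to 0.49, miR-155-5p from -1.16 to 0.42, miR-146a-5p from -0.24 to 0.085, miR-146b from -0.47 to 0.91 and miR-21-5p from -1.48 to 0.75. With the replicate number as a block, 0 mRNAs, 0 markers and 0 myeloid miRNAs were called. The numbers are not said to pair the animals, and the correlation of same-numbered deviations was 0.09 for mRNAs and -0.02 for miRNAs.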
